A study of Homo sapiens with 18 samples.

Results

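Type I interferon signalling was followed through 9 named genes in murine-TLR5-overexpressing HEK293 cells, a human embryonic kidney line, exposed to bacterial flagellin. The genes were IFNAR1 and IFNAR2, which encode the receptor chains, the kinases JAK1 and TYK2, and the transcription factors STAT2, IRF9, IRF7, IRF3 and IRF1. They were chosen by name, and each was read from the probe set whose platform annotation gives its symbol alone, taking the brightest where a gene had several. This gave 8 of the 9 genes, all of which passed the filter on dim probe sets, among 16111 genes tested and 22357 symbols with a probe set of their own. No probe set of the annotation used here names STAT2 alone, so STAT2 was not analysed here. The study held 18 Affymetrix Human Gene ST arrays in 6 groups of 3 biological replicates, lettered A, B and C: mock control, flagellin of E. coli Nissle (EcN) and flagellin of Salmonella Typhimurium SL1344 (ST), each after 60 min and after 120 min. All groups, mock included, carried the murine TLR5 transgene, whose promoter and clonality the labels do not give, and were grown in SILAC (isotope-labelled amino acid) media, without a statement of which culture had which label. The description field of the ST arrays repeats the mock wording, whereas their title, source and treatment fields all name ST; the latter were followed.

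Type I interferons bind a receptor made of IFNAR1 and IFNAR2, whose tails hold the kinases TYK2 and JAK1. The kinases phosphorylate STAT factors, STAT2 among them, which join IRF9 in ISGF3, a complex that binds interferon-stimulated response elements in front of antiviral genes. IRF3 and IRF7 act earlier, being activated by phosphorylation downstream of pattern-recognition receptors and then switching on interferon genes, while IRF7 and IRF9 are themselves interferon-induced. IRF1 is a short-lived factor whose gene responds to NF-kB and to interferons. TLR5, the flagellin receptor, signals through MYD88 to NF-kB.

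Array values were deposited as log2 levels, and the median probe set of an array lay between 2.27 and 2.32. Of the HEK293 markers listed, 9 were tested, with a mean level of 6.50 to 6.75 on the 18 arrays. Of 10 leukocyte markers 4 were tested, and the defining leukocyte gene PTPRC reached at most 1.55. The mean of those 4 lay at 3.97 to 4.57 on the mock arrays and 4.19 to 4.24 on the EcN arrays at 60 min, and 1 of them, CD68, rose by 0.39 ± 0.11 with EcN at 60 min (adjusted p = 0.0445); its part in the results was not tested. A set of 5 arrays stood apart by NF-kB target genes: replicate C of EcN and of ST at both times, and mock replicate A at 120 min. NFKBIA, which encodes the NF-kB inhibitor IkB-alpha, lay at 10.15 to 10.85 on those 5 arrays and at 8.09 to 8.82 on the other 13. TNFAIP3, another NF-kB target, lay at 8.20 to 9.60 against 5.95 to 6.55. A mock array was therefore high for NF-kB targets and 8 of the 12 flagellin arrays were not. For this reason some results below, though not all, are also given without these 5 arrays.

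Upstream sequence was available for 6 of the 9 genes (RefSeq, GRCh38.p14), and the windows of IRF9 and IRF1 are shown because these were the ones with a match to a searched motif. The 250 bases before each annotated start are printed on the gene's strand, with matches in capitals. The IRF9 window is chr14:24161015-24161264 on the plus strand, with a gamma-activated site match, TTCTGGGAA, starting 63 bases before the start of the gene. The IRF1 window is chr5:132490774-132491023 on the minus strand, with a gamma-activated site match, TTCCCCGAA, 124 bases before the start and a match to the consensus NF-kB site, GGGGAATCCC, 50 bases before it.
IRF9: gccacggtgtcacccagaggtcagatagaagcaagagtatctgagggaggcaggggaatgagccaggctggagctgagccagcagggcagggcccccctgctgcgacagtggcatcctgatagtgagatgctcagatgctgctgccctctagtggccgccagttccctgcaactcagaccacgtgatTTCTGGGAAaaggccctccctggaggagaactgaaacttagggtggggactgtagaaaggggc
IRF1: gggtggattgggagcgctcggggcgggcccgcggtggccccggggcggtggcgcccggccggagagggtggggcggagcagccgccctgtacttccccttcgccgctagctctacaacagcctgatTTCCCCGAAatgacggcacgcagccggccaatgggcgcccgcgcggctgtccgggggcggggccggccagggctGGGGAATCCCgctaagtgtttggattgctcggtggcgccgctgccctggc
The gamma-activated site was searched as TTCNNNGAA and the core of the interferon-stimulated response element as GAAANNGAA, on both strands. Among 35116 RefSeq windows, 6.57% held the first and 6.88% the second in the 250 bases before the start, and 9.96% held the NF-kB site. The response-element core was not found in the windows of IRF9, IRF1, IFNAR1, JAK1, TYK2 or STAT2. IFNAR1 has 2 such windows and JAK1 has 3. These are matches of letters, not measured binding sites.

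Among the receptor chains, IFNAR1 was lower 60 min after EcN flagellin. Its log2 level was 7.70, 7.57 and 7.71 on the mock arrays A, B and C at 60 min. It was 7.29, 7.18 and 7.18 after EcN and 7.40, 7.27 and 7.28 after ST. Every flagellin array lay below every mock array at that time. The share of all genes without overlap was not computed, for this or any later comparison. In limma 24.8% of all genes with EcN and 22.5% with ST had an unadjusted p under 0.05 at 60 min. IFNAR1 fell by 0.44 ± 0.10 (SE) on the log2 scale with EcN (adjusted p = 0.025), and the difference with ST was -0.34 ± 0.10 (adjusted p = 0.0614), which passed with array weights (adjusted p = 0.0134), with a trended robust spread (0.0381) and without mock replicate A (0.0172) or C (0.0418) of 120 min. The EcN call was lost on leaving out any of the 6 arrays compared (adjusted p from 0.0514 to 0.0881), and it was kept without the 5 arrays high in NFKBIA (-0.43, adjusted p = 0.0338). As in any bulk sample, fewer transcripts per cell and fewer cells with the transcript cannot be told apart.

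At 120 min IFNAR1 stood at 7.65, 7.25 and 7.25 in mock, at 7.14, 7.09 and 7.12 after EcN and at 7.42, 7.39 and 7.44 after ST. Mock replicate A was as high as the mock arrays at 60 min, and replicates B and C were not. The difference from mock was -0.27 ± 0.10 with EcN (adjusted p = 0.206) and 0.04 ± 0.10 with ST (adjusted p = 0.895), and neither passed. IFNAR1 was thus high, at 7.57 to 7.71, on the 3 mock arrays at 60 min and mock array A at 120 min, and lay at 7.09 to 7.44 on the other 14.

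IFNAR2, the chain that gives the receptor its high affinity, passed in no comparison. At 60 min its level was 5.75, 6.21 and 5.68 in mock, 5.69, 5.72 and 5.76 after EcN, and 5.38, 5.77 and 5.28 after ST. At 120 min it was 5.997, 6.01 and 5.68 in mock, 5.66, 5.42 and 5.67 after EcN, and 5.60, 5.66 and 5.50 after ST. At 120 min every flagellin array lay below every mock array, the nearest pair lying close together, and at 60 min the groups overlapped. The 4 differences from mock ran from -0.40 ± 0.15 (ST at 60 min, adjusted p = 0.12) to -0.16 ± 0.15 (EcN at 60 min, adjusted p = 0.548).

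The receptor-bound kinases varied least. JAK1 spanned 9.38 to 9.70 over all 18 arrays, a range of 0.32 that was wider than that of only 1.7% of the genes tested. TYK2 spanned 6.09 to 6.57, a range of 0.48 at the 12.7th percentile. All 6 groups overlapped for JAK1, whose difference from mock lay between -0.01 and 0.08 in the 4 flagellin comparisons. The 95% confidence interval for JAK1 with ST at 60 min ran from -0.13 to 0.27, and that for TYK2, at 0.19, from -0.03 to 0.42.

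IRF9, the DNA-binding subunit that STAT2 joins in ISGF3, rose with both flagellins at 60 min. Its level was 5.01, 5.25 and 5.35 in mock, 6.05, 6.41 and 6.39 after EcN, and 6.62, 6.83 and 6.92 after ST. The 3 groups did not overlap, with mock lowest and ST highest. IRF9 rose by 1.08 ± 0.21 with EcN, or 2.12-fold (adjusted p = 0.0186), and by 1.59 ± 0.21 with ST, or 3.01-fold (adjusted p = 0.00532). The ST call was kept on leaving out each of the 18 arrays in turn. The EcN call was lost without mock replicate B or C or EcN replicate B or C of that time (adjusted p from 0.054 to 0.0669). Without the 5 arrays high in NFKBIA both were kept, at 1.03 with EcN (adjusted p = 0.0109) and 1.53 with ST (adjusted p = 0.00601).

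At 120 min IRF9 stood at 5.22, 6.17 and 6.16 in mock, 6.13, 5.88 and 6.29 after EcN, and 6.36, 6.74 and 6.64 after ST. Mock replicate A was at the level of the mock arrays at 60 min, whereas mock B and C lay within the EcN range. All ST arrays were above all mock arrays. The difference from mock was 0.25 ± 0.21 with EcN (adjusted p = 0.585) and 0.73 ± 0.21 with ST (adjusted p = 0.102), and neither passed. Without the 5 arrays high in NFKBIA they were -0.16 and 0.39, and without mock replicate C of that time the ST difference passed (0.89, adjusted p = 0.0405). The change of the flagellin effect from 60 to 120 min was -0.83 ± 0.30 for EcN (adjusted p = 0.305) and -0.86 ± 0.30 for ST (adjusted p = 0.381).

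The level of IRF9 between the mock groups turned on a single array. Mock at 120 min minus mock at 60 min was 0.65 ± 0.21 (adjusted p = 0.272). Without mock replicate A at 120 min it was 0.96 ± 0.16 (adjusted p = 0.00571), and the change of effect over time became -1.15 ± 0.21 for EcN (adjusted p = 0.0125) and -1.17 ± 0.21 for ST (adjusted p = 0.0148). IFNAR1 moved the other way, with a mock difference of -0.28 ± 0.10 on all arrays (adjusted p = 0.322) and -0.41 ± 0.09 without that array (adjusted p = 0.0157). IRF9 was at 5.01 to 5.35 on the same 4 arrays that were high for IFNAR1, and at 5.88 to 6.92 on the other 14. As a description over 18 arrays that share groups, Pearson r between the genes was -0.61, and -0.81 for deviations from group means. Mock array A at 120 min lay farthest from its group mean for both genes, at 0.26 for IFNAR1 and -0.63 for IRF9. The r without that array was not computed.

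**Figure D1:**
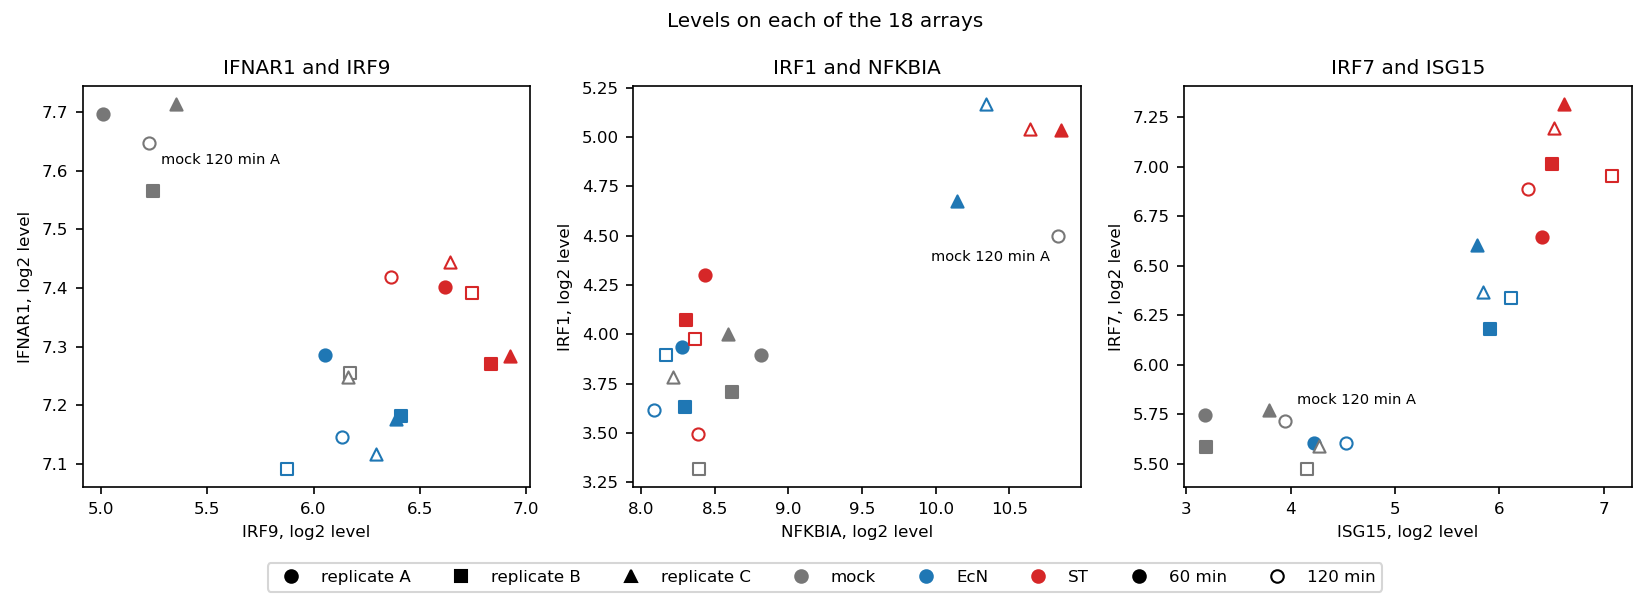
Log2 levels on each of the 18 arrays, for IFNAR1 against IRF9, IRF1 against NFKBIA and IRF7 against ISG15; colour marks the treatment, shape the replicate letter, filled points 60 min and open points 120 min. The 3 mock arrays at 60 min and mock array A at 120 min sit together at low IRF9 and high IFNAR1, and 5 arrays sit apart at high NFKBIA and high IRF1.

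IRF9 had a second probe set with its symbol alone, which was dim at 2.30 to 3.52. ST had the highest group mean at both times in both probe sets. The dim one did not show the rise with EcN, and its ST arrays overlapped the mock arrays at each time. Its group means were 2.75 ± 0.40 in mock, 2.72 ± 0.16 after EcN and 2.97 ± 0.55 after ST at 60 min (SD, n = 3). At 120 min they were 2.85 ± 0.47, 2.60 ± 0.23 and 3.36 ± 0.27 in the same order. With the mean of both probe sets the EcN difference at 60 min was 0.53 ± 0.21 and its call was lost (adjusted p = 0.14), and the ST difference was 0.90 ± 0.21 and kept its call (adjusted p = 0.0265).

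IRF7, which switches on interferon-alpha genes and is itself interferon-induced, rose with ST flagellin at both times. Its level at 60 min was 5.75, 5.58 and 5.77 in mock, 5.61, 6.18 and 6.61 after EcN, and 6.64, 7.01 and 7.32 after ST. At 120 min it was 5.72, 5.48 and 5.59 in mock, 5.60, 6.33 and 6.37 after EcN, and 6.89, 6.95 and 7.20 after ST. Every ST array lay above every EcN and mock array of its time, while EcN replicate A stayed within the mock range at both times and EcN B and C lay above it. Mock replicate A at 120 min, which was high for NFKBIA, had an IRF7 level within the range of the mock arrays at 60 min.

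IRF7 rose by 1.29 ± 0.23 with ST at 60 min, or 2.44-fold (adjusted p = 0.0124), and by 1.42 ± 0.23 at 120 min, or 2.67-fold (adjusted p = 0.0331). With EcN the difference was 0.43 ± 0.23 (adjusted p = 0.267) and 0.51 ± 0.23 (adjusted p = 0.288). Without the 5 arrays high in NFKBIA the ST differences were 1.13 (adjusted p = 0.0348) and 1.39 (adjusted p = 0.0412). The 60 min call was lost without ST replicate C (adjusted p = 0.0507). The 120 min call was lost without mock replicate B (adjusted p = 0.158), EcN replicate B (adjusted p = 0.0503) or any ST replicate of that time (adjusted p from 0.0863 to 0.094). The effect at 120 min minus that at 60 min was 0.13 ± 0.33 (adjusted p = 0.908) for ST and 0.08 ± 0.33 for EcN (adjusted p = 0.948).

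**Figure D2:**
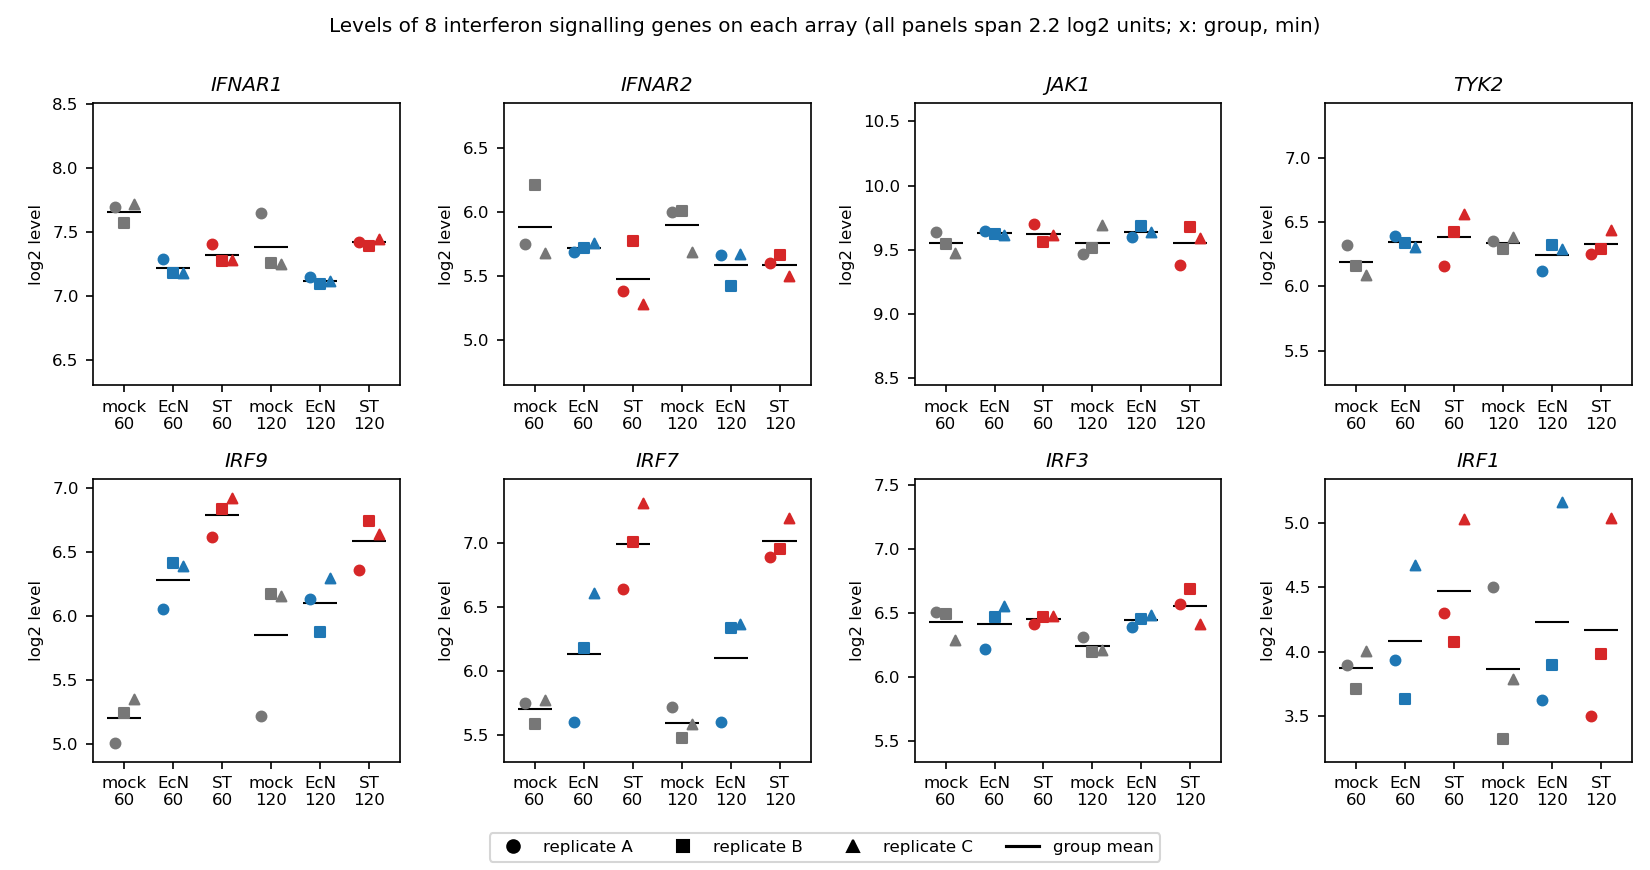
Log2 level of each of the 8 genes on every array (vertical axis, each panel spanning the same width) by treatment and time in minutes; shapes are replicate letters and bars group means of 3 arrays. IRF7 and IRF9 span 1.84 and 1.92 over the arrays, whereas JAK1 spans 0.32.

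IRF3, which is present before stimulation and is switched on by phosphorylation, moved little. It spanned 6.19 to 6.69, a range at the 15th percentile of the genes tested. At 60 min its level was 6.51, 6.49 and 6.29 in mock, 6.22, 6.47 and 6.56 after EcN, and 6.41, 6.47 and 6.48 after ST, with all groups overlapping. At 120 min it was 6.32, 6.20 and 6.21 in mock, 6.39, 6.46 and 6.49 after EcN, and 6.57, 6.69 and 6.41 after ST, so that the flagellin arrays lay above the mock arrays. The difference at 120 min was 0.20 ± 0.10 with EcN (adjusted p = 0.336) and 0.32 ± 0.10 with ST (adjusted p = 0.137), and neither passed.

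IRF1 was highest on the 5 arrays high in NFKBIA, a mock array among them. Its level at 60 min was 3.90, 3.71 and 4.003 in mock, 3.94, 3.63 and 4.68 after EcN, and 4.30, 4.07 and 5.03 after ST. At 120 min it was 4.50, 3.32 and 3.78 in mock, 3.62, 3.90 and 5.17 after EcN, and 3.50, 3.98 and 5.04 after ST. The 5 highest IRF1 levels, 4.50 to 5.17, belonged to the 5 arrays high in NFKBIA, and the other 13 arrays held 3.32 to 4.30. No flagellin difference passed, the largest being 0.60 ± 0.43 with ST at 60 min (adjusted p = 0.45). Without those 5 arrays that difference was 0.32 ± 0.19 (adjusted p = 0.361), and the one with EcN at 60 min went from 0.21 to -0.09. The residual SD of IRF1 within groups, 0.61, exceeded that of 99.6% of the genes tested.

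The interferon-induced factors IRF7 and IRF9 were set beside the receptor side of the pathway. For each array the deviation from the mock mean of the same time was averaged over IRF7 and IRF9, and over IFNAR1, IFNAR2, JAK1 and TYK2. At 60 min the IRF7 and IRF9 mean was 0.38, 0.84 and 1.05 on EcN arrays A, B and C, where the receptor and kinase mean was -0.07, -0.11 and -0.11. On the ST arrays of that time it was 1.18, 1.47 and 1.67, beside -0.16, -0.06 and -0.13. EcN A was the lowest of the 6 and ST C the highest for the IRF genes.

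At 120 min the IRF7 and IRF9 mean was 0.15, 0.38 and 0.61 after EcN, beside -0.16, -0.17 and -0.12 for receptors and kinases. After ST it was 0.90, 1.13 and 1.20, beside -0.13, -0.04 and -0.05. The IRF mean was above 0 and the receptor and kinase mean below 0 on all 12 flagellin arrays, but single genes differed. IRF7 was at -0.10 on EcN A at 60 min, and IRF9 at 0.02 on EcN B at 120 min, below mock B and C (0.32 and 0.31). Within the receptor and kinase mean, IFNAR2 was below 0 on 12 and IFNAR1 on 9 of the 12 arrays, whereas JAK1 was above 0 on 11, and TYK2 on 5 of 6 at 60 min and 1 of 6 at 120 min. The mock arrays themselves ran from -0.07 to 0.11 for the IRF mean at 60 min and from -0.25 to 0.15 at 120 min, so that EcN A at 120 min (0.15) lay at the edge of the mock range. The receptor and kinase mean of the mock arrays ran from -0.08 to 0.07, and 4 of the 12 flagellin arrays lay within that range. The 120 min baseline includes mock array A, which stands apart for IRF9 and IFNAR1. The 6 tested housekeeping genes also had medians below 0 in the 4 flagellin comparisons (-0.23 and -0.15 with EcN and ST at 60 min, -0.31 and -0.15 at 120 min). With both flagellins averaged at 60 min, limma called HPRT1 lower (-0.34 ± 0.10, adjusted p = 0.0467) and B2M higher (0.46 ± 0.09, adjusted p = 0.00868). HPRT1 was not called with EcN (adjusted p = 0.154) or ST (adjusted p = 0.0616) alone. B2M was called higher with each (adjusted p = 0.0194 and 0.0446). The part of the housekeeping genes in the receptor values was not tested. The deviations are descriptions with no test.

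**Figure D3:**
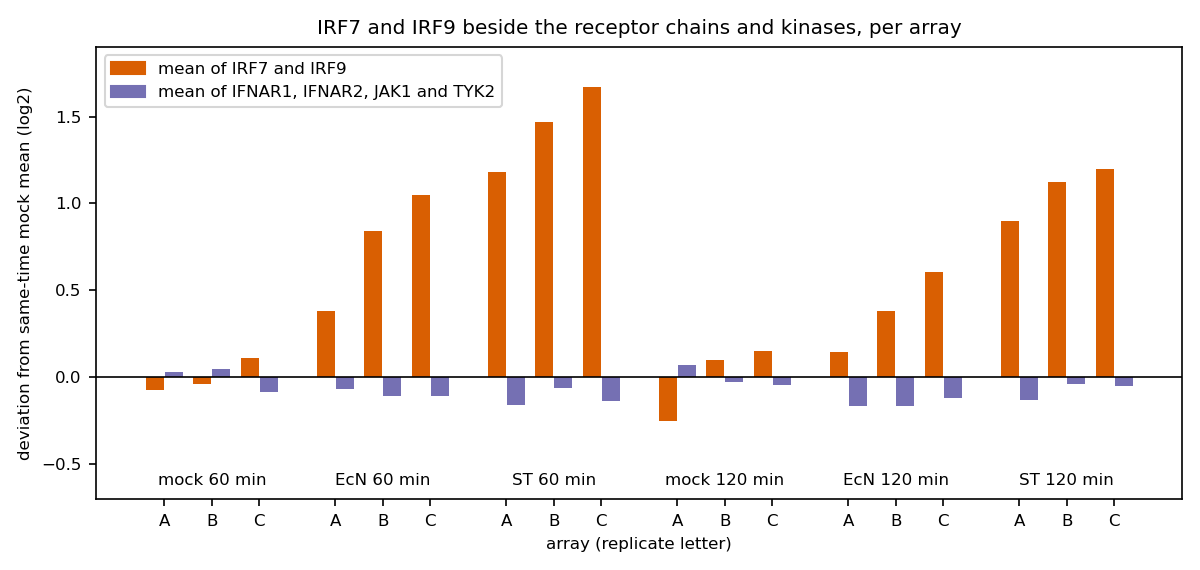
Deviation of each array from the mean of the 3 mock arrays of its time (log2), averaged over IRF7 and IRF9 (orange) and over IFNAR1, IFNAR2, JAK1 and TYK2 (purple), by group and replicate letter. The orange bars reach 1.67 on ST array C at 60 min, and the purple bars of the flagellin arrays lie between -0.17 and -0.04.

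Each comparison was read against the share of all genes that passed it. With EcN at 60 min 2 of the 8 genes passed, IRF9 higher and IFNAR1 lower, where 6.45% of all genes did. With ST at 60 min 2 passed, IRF9 and IRF7, both higher, where 5.26% of all genes did. With EcN at 120 min 0 of 8 passed in limma, beside 0.0621% of all genes, and 2 had an unadjusted p under 0.05, beside 16.5% of all genes. With ST at 120 min 1 passed, IRF7, beside 0.559%. With both flagellins averaged, 3 passed at 60 min (10.3% of all genes) and 1 at 120 min (0.732%).

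In the averaged comparison at 60 min IRF9 rose by 1.34 ± 0.18 (adjusted p = 0.00488), IRF7 rose by 0.86 ± 0.20 (adjusted p = 0.0166) and IFNAR1 fell by 0.39 ± 0.09 (adjusted p = 0.0139). The IRF7 call was lost without mock replicate B or C of that time, and the IFNAR1 call without mock replicate C (adjusted p = 0.0718). At 120 min IRF7 rose by 0.96 ± 0.20 (adjusted p = 0.0447). That last call was lost under many of the alternatives, including on leaving out the 5 arrays high in NFKBIA (0.91, adjusted p = 0.0811).

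**Figure D4:**
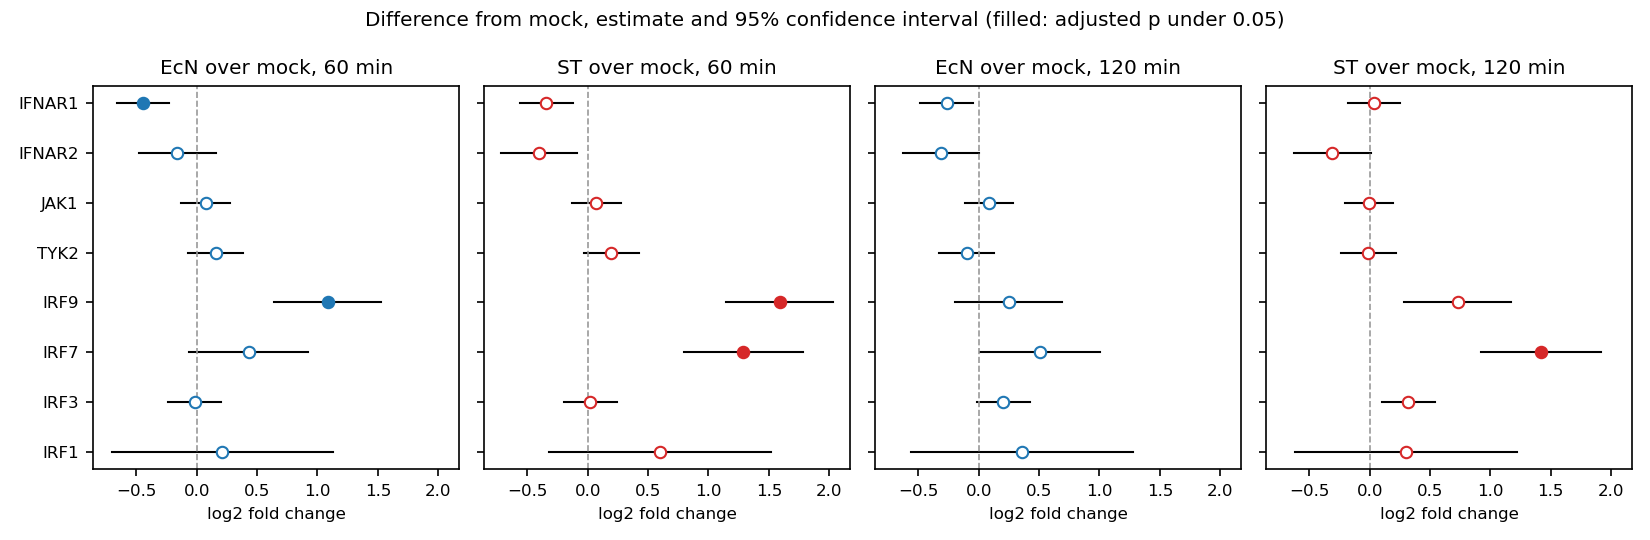
Difference from the mock group of the same time (log2 fold change, horizontal axis) for each gene, with its 95% confidence interval from the fit; filled points passed an adjusted p of 0.05. IRF9 passed with both flagellins at 60 min, IRF7 with ST at both times and IFNAR1 with EcN at 60 min.

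The flagellins were also compared directly. ST exceeded EcN for IRF7 by 0.86 ± 0.23 at 60 min (adjusted p = 0.323) and by 0.91 ± 0.23 at 120 min (adjusted p = 0.206). For IRF9 the difference was 0.51 ± 0.21 (adjusted p = 0.469) and 0.48 ± 0.21 (adjusted p = 0.391). The ST and EcN arrays did not overlap for either gene at either time. This was not particular to these genes: at 120 min every ST array also lay above every EcN array for IFNAR1 (0.30 ± 0.10, adjusted p = 0.29). The share of all genes without overlap was not computed, here or for the comparisons with mock above. In limma 0 of 8 genes passed at either time, as did 0% of all genes, while 2 at 60 min and 3 at 120 min had an unadjusted p under 0.05, beside 9.19% and 11.7% of all genes. The comparison of the mock groups over time and the changes of each flagellin effect over time also had 0 of 8 genes and 0% of all genes past the threshold, with 2, 1 and 2 genes under an unadjusted p of 0.05 for mock, EcN and ST, beside 12.1%, 12% and 10.7% of all genes.

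By the likeness of their levels over the 18 arrays, IRF7, IRF9 and IRF1 had different nearest genes. For IRF7 they were DNAH17 (Pearson r 0.96, and 0.95 without the 2 arrays farthest from the median), SP100, SAMD9, ISG15 and SAMHD1, down to r 0.90. For IRF9 they were IFI6 (r 0.93, and 0.89 without 2 arrays), IFI44L, IFI16, IFIT3 and GDF15, down to r 0.90. For IRF1 they were GADD45B (r 0.88), CXCL8, TNFAIP3, NFKBIZ and NFKBIA, down to r 0.87. Spearman rho was lower for the last 4, at 0.53 for CXCL8 and 0.67 for NFKBIA. For IFNAR1 they were PARPBP (r 0.93), RIMOC1, OLA1, CRIPT and ASF1A. For IRF3, IFNAR2, TYK2 and JAK1 the nearest genes were MFSD12 (r 0.87), DANCR (r 0.85), IER2 (r 0.79) and WRN (r 0.77). These arrays share groups and replicates, and the nearest of 16111 genes is high by selection.

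ISG15, which encodes a ubiquitin-like modifier and is a standard ISGF3 target, followed IRF7 closely. Its level was 3.18, 3.19 and 3.79 in mock, 4.22, 5.91 and 5.79 after EcN, and 6.41, 6.50 and 6.62 after ST at 60 min. At 120 min it was 3.94, 4.15 and 4.28 in mock, 4.53, 6.12 and 5.85 after EcN, and 6.27, 7.08 and 6.53 after ST. EcN replicate A was the lowest flagellin array for both ISG15 and IRF7 at each time.

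Many known ISGF3 targets were called higher at 60 min. Of 29 tested of 32 listed, 17 passed higher with EcN and 20 with ST at 60 min, and 0 passed lower. Of all genes, 6.45% and 5.26% passed in either direction. The median log2 fold change of the 29 was 0.89 with EcN and 0.88 with ST, beside 0.01 and 0 over all genes. At 120 min 0 passed with EcN and 7 with ST, beside 0.0621% and 0.559% of all genes, with medians of 0.68 and 0.76. IFI44L, an interferon-induced gene of uncertain function, rose by 2.86 ± 0.53 with EcN (adjusted p = 0.0186) and by 3.59 ± 0.53 with ST at 60 min (adjusted p = 0.00551). ISG15 rose by 3.13 ± 0.41 with ST at 60 min (adjusted p = 0.00532) and by 2.50 ± 0.41 at 120 min (adjusted p = 0.0331). Without the 5 arrays high in NFKBIA the counts were 5 with EcN and 12 with ST at 60 min, and 0 and 0 at 120 min, and without the arrays lettered C all 4 counts were 0. Leaving out mock B, mock C, EcN B or EcN C at 60 min took the EcN count to 0; leaving out 1 of the mock or ST arrays at 60 min took the ST count to between 12 and 15, and leaving out mock B, EcN B or any ST array at 120 min took the ST count of that time to 0. The list was drawn up with earlier results of these data known, so its direction is not independent evidence.

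Of 21 listed ligand genes 5 passed the filter (IFNA5, IFNA14, IFNL1, IFNL2 and IFNL3) and 0 were called in limma in any comparison. IFNL3, a type III interferon, lay at 4.09 to 4.93, IFNL2 at 3.43 to 4.52 and IFNA14 at 2.82 to 4.84, above every array median. IFNB1, the first interferon made in most cells, reached at most 1.89 on any array, and IFNG 1.66, both below the lowest array median of 2.27.

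Among sensors and adaptors upstream of IRF3 and IRF7, 17 of 23 listed genes were tested. At 60 min 1 passed higher and 1 lower with EcN, and 2 higher and 1 lower with ST. The shares of all genes in either direction were 6.45% and 5.26%. With both flagellins averaged at 60 min, 2 passed higher and 2 lower, beside 10.3% of all genes. MYD88, through which TLR5 signals, was among the lower (-0.37 ± 0.11, adjusted p = 0.043). It was not called with EcN (adjusted p = 0.0944) or ST (adjusted p = 0.0899) alone. At 120 min 0 passed with EcN and 1 passed higher with ST, beside 0.0621% and 0.559% of all genes. RIGI, a sensor of viral RNA, rose by 1.11 ± 0.27 with EcN (adjusted p = 0.031) and by 1.62 ± 0.27 with ST at 60 min (adjusted p = 0.0089). IFIH1, which encodes the sensor MDA5, rose with ST by 0.82 ± 0.13 at 60 min (adjusted p = 0.00615) and by 0.67 ± 0.13 at 120 min (adjusted p = 0.0341). MAVS, the adaptor of both sensors, fell by 0.70 ± 0.12 with EcN (adjusted p = 0.0159) and by 0.51 ± 0.12 with ST at 60 min (adjusted p = 0.0259). These sensors are themselves interferon-induced genes.

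Among 14 tested inhibitors and modifiers of the pathway, 1 passed higher and 2 lower with EcN at 60 min, and 1 higher and 1 lower with ST, beside 6.45% and 5.26% of all genes in either direction. UBE2L6, the enzyme that conjugates ISG15, rose by 1.45 ± 0.35 with EcN (adjusted p = 0.0283) and by 1.24 ± 0.35 with ST (adjusted p = 0.0496). PIAS1, a SUMO ligase that restrains STAT factors, fell by 0.47 ± 0.12 (adjusted p = 0.03) and by 0.57 ± 0.12 (adjusted p = 0.0171). SOCS3, a cytokine-signalling inhibitor, fell with EcN by 0.53 ± 0.14 (adjusted p = 0.0404). None of these passed at 120 min.

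The remaining receptor chains, kinases and factors were mostly outside the calls, and 1 call in lists this short is near the share of all genes called (6.45% with EcN and 5.26% with ST at 60 min). JAK2 fell by 0.41 ± 0.11 with ST at 60 min (adjusted p = 0.0496), as 1 of 6 tested receptor chains and kinases. STAT6, which serves interleukin-4 signalling, rose by 0.47 ± 0.13 with ST at 60 min (adjusted p = 0.0431), as 1 of 5 tested STAT genes. Of 7 other tested IRF-family genes 0 were called in limma in any comparison. Of 6 tested targets of the gamma-activated site, TAP1, a peptide transporter subunit, passed with EcN at 60 min (0.33 ± 0.09, adjusted p = 0.0458). Of 9 tested NF-kB response genes 0 passed in limma in the 4 flagellin comparisons. Their mean level was 4.40 to 7.14 on the flagellin arrays. It was 4.52 to 4.59 on the mock arrays of 60 min and 4.43 to 7.05 on those of 120 min. The 5 arrays high in NFKBIA were spread over the groups, and the SE of NFKBIA was 0.85, which limits what a count of 0 can show.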

How the data were processed

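Each of the 18 RNA samples was hybridised to 1 Affymetrix Human Gene ST array. The deposited values are log2 levels, made by the authors with RMA in the oligo package (version 1.30.0), per the submitters' processing notes; the level of summarisation is not stated there. Probe sets were named through the platform annotation given for the series, with symbols updated through RefSeq: of 53617 rows, 23871 had 1 symbol, 1842 several and 27904 none. A row was kept when above its array's median on at least 3 arrays, and the brightest row stood for a gene (399 genes had several), leaving 16111. Group means were fitted with limma 3.58.1 (R 4.3.3) on all 18 arrays, with Benjamini-Hochberg adjustment over all genes and a call at an adjusted p under 0.05; intervals are 95%. Labels name the replicates biological, without saying how cultures were separated. Depth has no counterpart here: the number of arrays limits precision. The fit was tested on simulated data. Named genes were all members, the 5 genes most alike by Pearson r for each, and at most 4 called genes a list. Members and lists were chosen with earlier results of these data known. Alternatives covered normalization, filter, probe-set choice, spread, weights, blocks and left-out arrays.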

Additional observations from a re-analysis of the deposited data

How the results depend on the processing

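Fold changes kept their sign in every refit of the results that passed or that set ST against EcN for IRF7 and IRF9. Of these, 334 refits kept their side of the threshold and 43 no longer passed it. The 334 include all refits of ST against EcN, which passed neither as reported nor in any refit. Among the results that passed, the calls kept ran from 13 of 29 refits (IRF7, both flagellins at 120 min) to 29 of 29 (IRF9, both at 60 min). The count of the 8 genes past the threshold moved as follows. With the mean of a gene's probe sets it was 1 with EcN at 60 min, against 2. Without the arrays lettered C, which leaves 2 arrays a group, it was 0 for EcN at 60 min, 0 for ST at 60 min, 0 for ST at 120 min, 1 for both flagellins at 60 min and 0 for both at 120 min. With array weights or a trended robust spread it was 3, against 2, for ST at 60 min (IFNAR1 added). For both flagellins at 120 min it was also 0, against 1, with no filter, with the compared groups alone, with array weights and without the 5 arrays high in NFKBIA. Without those 5 arrays it was 2, against 0, for mock over time (IRF9 and IFNAR1) and 1, against 0, for the change of the EcN effect over time (IRF9). On leaving out each array in turn the count ran from 0 to 2 for EcN at 60 min, 1 to 3 for ST at 60 min, 0 to 2 for ST at 120 min, 1 to 3 for both at 60 min, 0 to 1 for both at 120 min, 0 to 2 for mock over time, 0 to 1 for the change of the EcN effect and 0 to 2 for that of ST. The replicate letter as a block gave 2 for EcN and 2 for ST at 60 min and 0 and 1 at 120 min, and changed no call. Deviations of same-lettered arrays had a median correlation of 0.04 (lowest -0.24, highest 0.27) over 45 pairs. For 90 pairs of other-lettered arrays the median was -0.02 (lowest -0.216, highest 0.345). Every same-lettered pair of flagellin arrays was positive (0.01 to 0.27), whereas same-lettered pairs with a mock array ran from -0.24 to 0.11. The letters were not taken to pair the arrays, and whether same-lettered flagellin arrays are independent was not tested. The cause of the shifts in the count was not tested. Low signal limits the second IRF9 probe set. IRF1 is limited by its spread within groups: its SE with ST at 60 min was 0.43 on all arrays and 0.19 without the 5 arrays high in NFKBIA.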
